A study of Homo sapiens with 6 samples.

Results

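The transcripts of 54 genes that carry out or supply DNA replication were followed in LNCaP cells with and without PACT. The genes were taken from a fixed list of NCBI Gene numbers and cover origin licensing, the replicative helicase, the polymerases and primase, the sliding clamp and its loader, deoxynucleotide supply, fork protection and chromatin assembly. All 54 were found among the 29806 genes listed in the counts table, and the rule that picks them uses no measured value, although the list was drawn up with earlier results of these data known. They were divided by function into 14 groups of 2 to 6 genes, called sub-complexes here. LNCaP is an androgen-responsive human prostate cancer cell line, and PACT is a double-stranded RNA binding protein encoded by *PRKRA*. The 3 LNCaP parental samples are labelled wild type, and the 3 PACT KO samples carry a CRISPR/Cas9 knockout of PACT in the same line. The knockout came from 1 clone, so that its 3 dishes measure the spread between dishes and not between clones, and any other difference between this clone and the parental line cannot be told apart from the loss of PACT. All 6 cultures were kept in RPMI-1640 with 10% fetal bovine serum in 10 cm dishes, with no other treatment given in the labels, and total RNA was extracted with Trizol 48 h after plating at about 80% confluency. Libraries of polyA RNA were sequenced, and the deposited table gives the reads counted per gene. The design asks which transcripts differ between the PACT KO cells and their parental line.

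Each round of replication starts at origins. There the origin recognition complex (ORC) and the loading factors CDC6 and CDT1 place the MCM2-7 ring on DNA before S phase begins. In S phase the ring is joined by CDC45 and the GINS complex to form the active helicase, polymerase alpha with primase lays down primers, and polymerases delta and epsilon extend them while held by the PCNA clamp. Transcription of many of these genes rises as cells pass from G1 into S phase, in large part under the E2F family of transcription factors, so that their transcripts are widely used as a sign of cycling cells.

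Libraries held 19930060 to 24940838 reads on genes, at which 3 counts correspond to 0.120 to 0.151 CPM (the counts of a gene in proportion to the reads on genes in its library, in the usual CPM unit). This floor uses the library totals alone, while the CPM of genes below were also scaled by the trimmed mean of M values. Replicate libraries differed by 1.56 to 3.60 times the variance that sampling of reads alone gives. *PRKRA* itself had 882, 809 and 866 reads in the parental libraries and 291, 331 and 243 in the PACT KO libraries, a log2 fold change (log2 FC) of -1.57 (SE 0.07), in the direction that the labels give. Of 8 luminal prostate markers all were tested, with 2 lower and 3 higher, and their summed level was 4092 to 4114 CPM in parental and 4213 to 4276 CPM in PACT KO cells. Of 4 basal epithelial markers, 3 had at most 3 counts in each of the 6 libraries and the list summed to at most 0.185 CPM. Of 5 fibroblast markers, *COL1A2* was at 0 in the 6 libraries and the list summed to 32.9 to 37.5 CPM in parental and 44.6 to 50.1 CPM in PACT KO cells, with *COL1A1* higher (log2 FC 0.52, edgeR FDR 1.98e-10). For 5 leukocyte markers the sums were 2.17 to 2.34 and 1.498 to 1.78 CPM, with *CD3E* at 0. Most of these sums came from *CD68*, the only one tested, which did not pass the threshold (log2 FC -0.43, edgeR FDR 0.0512). For 4 endothelial markers the sums were 24.4 to 27.0 and 15.6 to 17.7 CPM, with *PECAM1* and *CDH5* at 0. *VWF*, the only endothelial marker tested, was lower (log2 FC -0.61, edgeR FDR 4.91e-09). The part of these markers in the results on replication genes was not tested.

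Transcripts of the replication machinery were lower in the PACT KO cells across nearly the whole set. All 54 genes passed the filter on low counts. Of them 47 (87.0%) fell at an FDR under 0.01, and none (0) rose (edgeR's quasi-likelihood test, Benjamini-Hochberg adjustment). Of all 14462 genes tested, 18.8% were lower and 15.3% higher at the same threshold. The median log2 FC of the 54 genes was -0.42 (quartiles -0.57 and -0.26), which is 25.04% lower, and the median over all genes tested was 0.00. The fitted log2 FC was below 0 for 52 of the 54, beside 49.9% of all genes tested. No gene of the set was higher at an unadjusted p under 0.05 either (0 of 54), and DESeq2 and limma-voom likewise called 0 higher. In bulk samples a smaller share of cells in S phase and less of these transcripts in each cell cannot be told apart. Added together, the 54 genes gave 3805, 3755 and 3723 CPM in the parental libraries and 2831, 2906 and 2927 CPM in the PACT KO libraries, a fall of 23.2%. Of all counts on genes they took 0.372% in the parental group and 0.291% in the knockout.

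The falls were small for single genes and repeated from gene to gene. Only 12 of the 54 (22.2%) met the criteria for a differentially expressed gene (DEG), an FDR under 0.01 with at least 1.5-fold change, beside 2.65% of all genes tested that were DEGs in this direction and 3.07% in the other, where the set had 0. They were *ORC6*, *CDC6*, *MCM5*, *CDC45*, *GINS2*, *MCM10*, *PRIM1*, *TYMS*, *RRM2*, *DTL*, *WDR76* and *HELLS*. *WDR76* alone passed 2-fold, and the second largest fall was that of *RRM2*, with a log2 FC of -0.78. The 1.5-fold line runs through the middle of a continuous series, with *MCM5* at -0.59 as the last DEG and *MCM7* at -0.58 and *MCM4* at -0.57 just outside it. Without PACT KO replicate 1 the number of DEGs was 7, since *CDC6*, *MCM5*, *CDC45*, *MCM10* and *HELLS* no longer met both criteria. At 1.4-fold 23 of the set were lower and at 1.3-fold 29. In 48 of the 54 genes the 3 PACT KO libraries lay below all 3 parental libraries, as they did for 27.2% of all genes tested. The other 6 were *ORC2*, *ORC3*, *ORC4*, *ORC5*, *RFC1* and *LIG1*, and together with *POLD3* these were the genes that did not pass an FDR of 0.01.

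**Figure D1:**
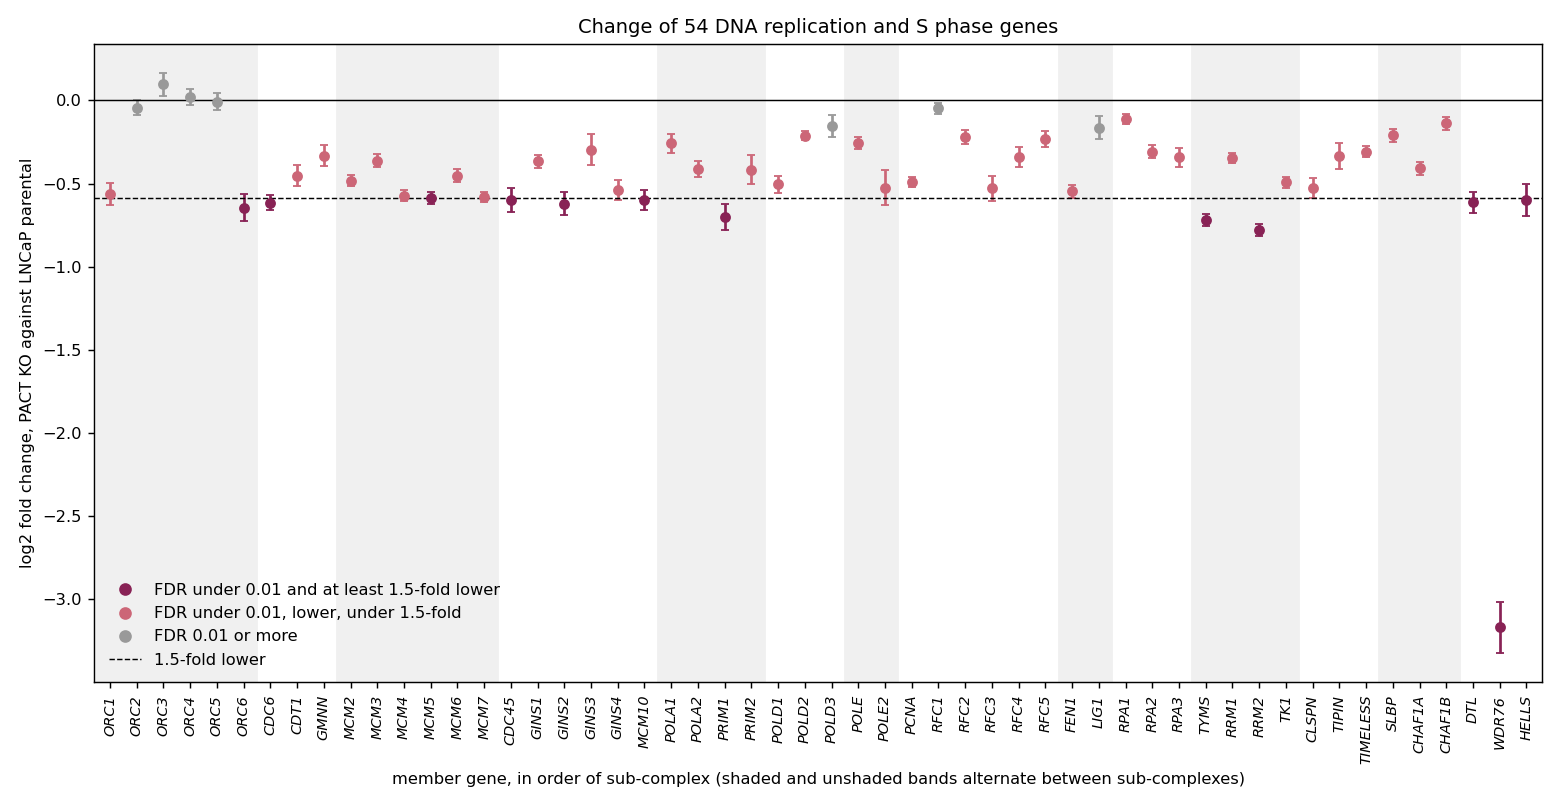
The log2 FC of each of the 54 genes in PACT KO against LNCaP parental cells (n = 3 libraries each), with bars of 1 SE, in the order of their sub-complexes; the dashed line is 1.5-fold lower. Of the 54 points, 52 lie below 0, with quartiles at -0.57 and -0.26, 4 ORC genes at the zero line and *WDR76* far below at -3.17.

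Within ORC, which marks origins and recruits the loading factors, the genes divided. The largest subunit, *ORC1*, fell from 27.7, 27.9 and 26.2 CPM in the parental libraries to 18.7, 18.4 and 18.3 CPM in the PACT KO libraries, a log2 FC of -0.56 (SE 0.07, edgeR FDR 3.94e-09). The smallest subunit, *ORC6*, went from 20.7, 21.0 and 18.01 CPM to 12.4, 13.2 and 12.6 CPM, a log2 FC of -0.65 (SE 0.08, edgeR FDR 2.07e-08). For both subunits every PACT KO library was below every parental library. *ORC2* had 37.3, 38.7 and 38.6 CPM in parental and 36.4, 37.9 and 36.9 CPM in PACT KO cells (log2 FC -0.04, edgeR FDR 0.461). *ORC3* had 20.4, 22.5 and 23.8 CPM against 23.4, 23.1 and 24.9 CPM (log2 FC 0.10, SE 0.07, edgeR FDR 0.255). The groups overlapped for both of these core subunits. *ORC4* had 41.8, 41.9 and 40.7 CPM against 39.9, 41.4 and 45.1 CPM (log2 FC 0.02, SE 0.05, edgeR FDR 0.747). *ORC5* had 37.5, 39.6 and 36.6 CPM against 35.8, 40.8 and 36.2 CPM (log2 FC -0.01, SE 0.05, edgeR FDR 0.911), and the groups overlapped for these subunits too. The ratio of *ORC1* to *ORC2* within a library was lower in the PACT KO cells by 0.52 on the log2 scale, with no overlap between the groups. ORC as a whole was the least changed sub-complex, with summed levels of 185, 192 and 184 CPM in parental and 167, 175 and 174 CPM in PACT KO cells (8.12% lower).

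**Figure D2:**
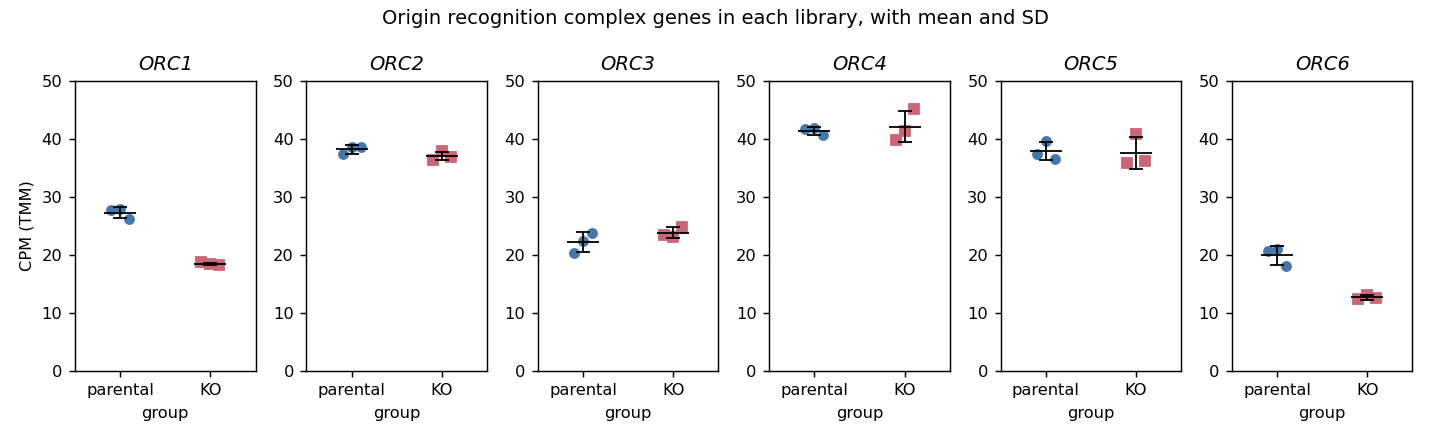
Level of the 6 ORC genes in CPM (vertical axis, from 0) in each LNCaP parental (circles) and PACT KO (squares) library, with the mean and SD of 3 libraries in black. *ORC1* and *ORC6* are separated between the groups, and *ORC2*, *ORC3*, *ORC4* and *ORC5* overlap.

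The promoters of these genes were read for the letters of E2F sites, since ORC holds genes that fell and genes that did not. RefSeq windows of GRCh38.p14, from 250 bases before to 50 bases after each start, were searched on both strands for TTGGCGC, for TTCCCGC and for TTCGCGC, which can overlap one another. The 120 bases just before the start are shown as examples for 4 ORC genes and for *MCM6* and *CDT1*, which fell in their own sub-complexes. Capitals mark the E2F letters on either strand. *ORC1* (chr1:52404424-52404543, minus strand) and *MCM6* (chr2:135876444-135876563, minus strand) each hold 2 overlapping matches, and *CDT1* (chr16:88803669-88803788, plus strand) holds 2 separate ones. *ORC3* (chr6:87590015-87590134, plus strand) holds 1, beside a level that did not differ. *ORC2* (chr2:200963661-200963780, minus strand) and *ORC6* (chr16:46689539-46689658, plus strand) hold 0 in these bases, although *ORC6* was among the DEGs. *ORC4* and *ORC5*, not shown, also hold 0 there, beside levels that did not differ. *ORC2*, *ORC4*, *ORC5* and *ORC6* hold no E2F letters in the rest of their windows either. Of the other licensing and MCM2-7 genes with a window, all of which fell, *MCM2* and *CDC6* hold 0 in the 120 bases. Both of them do hold E2F letters elsewhere in their windows. *MCM3* holds 1 in the 120 bases, as do *GMNN* and *MCM7* in 1 of their windows.
ORC1: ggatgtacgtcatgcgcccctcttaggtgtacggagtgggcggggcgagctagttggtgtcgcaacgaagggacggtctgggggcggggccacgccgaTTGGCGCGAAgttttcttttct
ORC6: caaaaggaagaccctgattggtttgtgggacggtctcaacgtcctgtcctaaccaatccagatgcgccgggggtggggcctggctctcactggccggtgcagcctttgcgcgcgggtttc
ORC2: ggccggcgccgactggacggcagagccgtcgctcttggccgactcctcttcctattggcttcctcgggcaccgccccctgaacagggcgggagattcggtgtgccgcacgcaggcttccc
ORC3: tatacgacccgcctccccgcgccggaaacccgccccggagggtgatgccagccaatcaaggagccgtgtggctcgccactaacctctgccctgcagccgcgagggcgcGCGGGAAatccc
MCM6: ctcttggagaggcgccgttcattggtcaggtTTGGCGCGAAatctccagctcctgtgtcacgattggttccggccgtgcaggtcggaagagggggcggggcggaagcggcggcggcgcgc
CDT1: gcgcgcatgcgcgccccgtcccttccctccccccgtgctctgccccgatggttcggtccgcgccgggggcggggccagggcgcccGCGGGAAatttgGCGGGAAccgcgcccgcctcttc

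Over the whole set, 47 of the 54 genes had a promoter window (none for *MCM4*, *MCM5*, *GINS4*, *POLD3*, *RPA2*, *RPA3* and *WDR76*). E2F letters were found in 36 of these 47 (76.6%), against 21.4% of the tested genes with a window and 13.1% of all genes in the promoter table. By window rather than by gene, the shares were 62.7%, 16.2% and 11%. The CCAAT box, searched as CCAAT on both strands, was in 30 of 47 (63.8%), against 43.2% of tested genes and 39.7% of all genes. The cell cycle homology region of late cell cycle genes, searched as TTTGAA and TTCGAA, was in 2 of 47 (4.26%), against 14.9% and 19.5%. The 36 genes with these exact E2F letters had a median log2 FC of -0.41 with 33 lower, and the 11 without had -0.42 with 8 lower. The medians were close, but only 11 genes lacked the letters and no difference was tested. A match of letters is a description of the window and not a bound site.

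Both loading factors were lower, as was the inhibitor that acts on one of them. *CDC6*, the ATPase that works with ORC to load the helicase, fell from 59.9, 57.3 and 60.1 CPM to 36.0, 41.0 and 38.7 CPM (log2 FC -0.62, SE 0.04, edgeR FDR 1.69e-14). *CDT1*, its partner in loading, fell from 28.4, 29.6 and 28.2 CPM to 20.6, 20.4 and 22.1 CPM (log2 FC -0.45, SE 0.06, edgeR FDR 1.498e-07). *GMNN*, which encodes geminin, the protein that binds CDT1 and blocks relicensing, fell from 31.2, 28.7 and 28.5 CPM to 23.4, 21.3 and 25.7 CPM (log2 FC -0.33, SE 0.07, edgeR FDR 5.92e-05). For each of the 3 genes the groups were separate. The ratio of *CDT1* to *GMNN* differed by -0.12 on the log2 scale between group means, and its libraries overlapped.

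All 6 genes of the MCM2-7 ring fell, by log2 FCs between -0.59 and -0.36. The ring opens and encircles DNA as a hexamer with 1 copy of each subunit. *MCM5* had 80.6, 79.2 and 79.3 CPM in parental and 51.8, 55.6 and 51.7 CPM in PACT KO cells (log2 FC -0.59, SE 0.04, edgeR FDR 9.05e-16). *MCM3*, the least changed, had 95.0, 91.2 and 84.99 CPM against 65.2, 71.4 and 74.8 CPM (log2 FC -0.36, SE 0.04, edgeR FDR 3.62e-09). No library of one group reached the other for either gene. *MCM2* (-0.48), *MCM4* (-0.57), *MCM6* (-0.45) and *MCM7* (-0.58) lay between them on the log2 scale. Summed over the ring, the levels were 891, 875 and 857 CPM in parental and 585, 616 and 625 CPM in PACT KO cells (30.4% lower).

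The 6 subunits were not equal in level, and their order was the same in both groups. Per kilobase of transcript, *MCM7* stood highest with 92.9 ± 0.171 CPM per kb (SD, n = 3) in parental and 62.2 ± 1.91 in PACT KO cells. *MCM2* followed with 45.5 ± 0.891 and 32.6 ± 1.18 CPM per kb, and *MCM4* with 41.6 ± 1.72 and 28.0 ± 1.24. *MCM3* had 28.2 ± 1.57 and 21.96 ± 1.52, *MCM6* 24.2 ± 1.51 and 17.7 ± 0.281, and *MCM5* 22.6 ± 0.215 and 15.0 ± 0.627 CPM per kb. Neighbours in this order did not overlap between libraries within a group. With the length of all exons merged in place of 1 transcript, *MCM4* (24.98) and *MCM3* (24.77 CPM per kb in parental cells) were almost equal. The ratio of *MCM7* to *MCM3* was lower in PACT KO cells by 0.22 on the log2 scale, with separate groups.

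The genes whose proteins turn the ring into a moving helicase were all lower, and 3 of the 6 were DEGs. *CDC45*, a permanent part of the active helicase, went from 24.5, 25.2 and 25.1 CPM to 14.8, 16.7 and 18.003 CPM (log2 FC -0.60, SE 0.07, edgeR FDR 1.09e-08). *GINS2*, of the 4-subunit GINS complex, went from 23.4, 24.6 and 24.2 CPM to 16.2, 15.4 and 15.3 CPM (log2 FC -0.62, SE 0.07, edgeR FDR 2.28e-09). *MCM10*, needed for helicase activation, went from 33.9, 35.2 and 32.9 CPM to 21.8, 22.3 and 23.2 CPM (log2 FC -0.60, SE 0.06, edgeR FDR 4.54e-11). The groups were separate for all 3. The other GINS genes fell less, *GINS4* with a log2 FC of -0.54, *GINS1* with -0.37 and *GINS3* with -0.30. *GINS3* had the fewest reads of them, 248, 219 and 256 in parental and 216, 203 and 171 in PACT KO libraries, and its FDR of 0.00811 (edgeR) was the closest to the threshold of the 47. It did not pass with any 1 of the 6 libraries left out (edgeR FDR 0.0113 to 0.0346), nor with DESeq2 (adjusted p 0.0366).

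Of the 9 genes of the set that encode subunits of the 3 replicative polymerases, 8 were lower. The largest falls within each polymerase were in *PRIM1*, *POLD1* and *POLE2*. The subunit genes *POLD4*, *POLE3* and *POLE4* were outside the set, in a list of accessory genes. *POLD4* had a log2 FC of 0.01 (edgeR FDR 0.846) with overlapping groups. *POLE3* was lower with -0.27 (edgeR FDR 8.84e-09) and *POLE4* with -0.24 (edgeR FDR 0.00248). *PRIM1*, the catalytic primase subunit that makes RNA primers, fell from 19.2, 20.4 and 21.4 CPM to 12.4, 12.4 and 12.7 CPM (log2 FC -0.70, SE 0.08, edgeR FDR 1.38e-09). *POLA1*, the catalytic subunit of polymerase alpha in the same assembly, went from 29.02, 31.1 and 30.2 CPM to 25.8, 25.8 and 23.8 CPM (log2 FC -0.26, SE 0.06, edgeR FDR 4.08e-04). Both were separate between groups, and *PRIM2* (-0.42) and *POLA2* (-0.41) lay between them. In polymerase delta, which extends the lagging strand, the catalytic *POLD1* fell most, from 41.3, 39.3 and 39.5 CPM to 28.3, 27.9 and 28.4 CPM (log2 FC -0.51, SE 0.05, edgeR FDR 7.95e-11). *POLD2*, a structural subunit, had a log2 FC of -0.21. *POLD3*, the subunit that binds the clamp, had 25.8, 22.8 and 24.0 CPM against 21.3, 22.2 and 21.8 CPM (log2 FC -0.15, SE 0.07), which were separate but did not pass (edgeR FDR 0.0573). In polymerase epsilon, the leading strand enzyme, the second subunit *POLE2* fell from 7.84, 7.86 and 8.20 CPM to 5.26, 5.47 and 5.94 CPM (log2 FC -0.52, SE 0.10, edgeR FDR 6.56e-05). The catalytic *POLE* went from 77.2, 78.4 and 73.7 CPM to 64.3, 64.3 and 63.4 CPM (log2 FC -0.26, SE 0.04, edgeR FDR 2.96e-07), and the ratio of *POLE2* to *POLE* was lower by 0.26 on the log2 scale with separate groups.

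The sliding clamp fell with 4 of the 5 loader subunits. *PCNA*, which forms the ring that tethers polymerases, went from 173, 166 and 171 CPM to 119, 123 and 121 CPM (log2 FC -0.49, SE 0.03, edgeR FDR 1.37e-16). Its loader, replication factor C, opens the ring and closes it around DNA. *RFC3*, a small loader subunit, fell from 21.0, 20.3 and 20.3 CPM to 14.6, 14.1 and 14.0 CPM (log2 FC -0.53, SE 0.07, edgeR FDR 2.32e-07). *RFC4* had a log2 FC of -0.34, *RFC5* of -0.23 and *RFC2* of -0.22, each lower past the threshold with separate groups. *RFC1*, the large subunit particular to this loader, had 93.9, 98.9 and 99.4 CPM in parental and 95.1, 93.3 and 94.3 CPM in PACT KO cells (log2 FC -0.05, SE 0.03, edgeR FDR 0.251), and its groups overlapped. *PCNAP1*, a processed copy of *PCNA* that could share its reads, was at 0 in the 6 libraries.

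For the joining of Okazaki fragments, *FEN1* and *LIG1* differed in outcome. *FEN1*, the nuclease that trims flaps, fell from 83.4, 78.9 and 75.6 CPM to 53.3, 56.3 and 53.1 CPM (log2 FC -0.55, SE 0.04, edgeR FDR 2.68e-14). *LIG1*, the ligase that seals the nicks, had 26.2, 24.7 and 26.5 CPM in parental and 21.4, 21.6 and 26.3 CPM in PACT KO cells (log2 FC -0.16, SE 0.07, edgeR FDR 0.0516). PACT KO replicate 3 lay within the parental range for *LIG1*, and without that library the log2 FC was -0.26 with an edgeR FDR of 0.00336. Of the single-strand binding protein RPA, *RPA3* fell from 31.6, 34.5 and 33.3 CPM to 25.1, 27.0 and 26.4 CPM (log2 FC -0.34, SE 0.06, edgeR FDR 4.15e-06) with separate groups. The log2 FC of *RPA2* was -0.31, and that of *RPA1*, the DNA-binding large subunit, was closer to 0. *RPA1* had 194, 195 and 190.0 CPM against 179, 183 and 172 CPM (log2 FC -0.11, SE 0.03, edgeR FDR 0.00153), which were separate though only 7.56% apart. It did not pass without LNCaP parental replicate 2 (edgeR FDR 0.0116) or PACT KO replicate 3 (edgeR FDR 0.0320).

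All 4 genes of deoxynucleotide supply were lower, by 31.1% on the summed level, from 537, 508 and 515 CPM to 355, 357 and 363 CPM. *RRM2*, the S phase subunit of ribonucleotide reductase, fell from 103, 101 and 99.003 CPM to 58.2, 57.3 and 61.2 CPM (log2 FC -0.78, SE 0.04, edgeR FDR 4.08e-20). *TYMS*, the thymidylate synthase that is the target of fluorouracil, fell from 112, 102 and 105 CPM to 64.4, 64.9 and 65.0 CPM (log2 FC -0.72, SE 0.04, edgeR FDR 6.15e-19). *RRM1*, the catalytic partner of RRM2, was the least changed with 168, 158 and 166 CPM against 131, 128 and 128 CPM (log2 FC -0.34, SE 0.03, edgeR FDR 5.62e-12). The 3 genes were separate between groups, as was *TK1*, the thymidine kinase of cycling cells (log2 FC -0.49). Of the exon bases of *TYMS*, 46.6% are shared with *ENOSF1* or *TYMSOS*, and whether strand was used in counting is not given in the sources used here. *ENOSF1*, named for this overlap after its values were seen, had 1050, 1066 and 1116 reads in parental and 1214, 1164 and 1063 in PACT KO libraries (log2 FC 0.09, edgeR FDR 0.0996). A further 12 genes of the set share some exon bases with another counted gene, each under 25%.

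The 2 small subunits of ribonucleotide reductase went in opposite directions. *RRM2B*, the subunit that serves cells outside S phase and repair, was higher in PACT KO cells, 97.6 ± 2.98 against 87.3 ± 3.09 CPM (SD, n = 3; log2 FC 0.16, SE 0.03, edgeR FDR 2.55e-04). The log2 ratio of *RRM2* to *RRM2B* in CPM was 0.28, 0.22 and 0.13 in the parental libraries and -0.79, -0.73 and -0.66 in the PACT KO libraries, a difference of -0.94. *RRM2* gave more CPM than *RRM2B* in each parental library and less in each PACT KO library, a comparison of reads that is not corrected for transcript length. *TK1* against *TK2*, its mitochondrial counterpart, gave a difference of -0.48 with separate groups, and *TK2* itself had a log2 FC of -0.01 (edgeR FDR 0.839). For *LIG1* against *LIG3* (-0.10) and *POLE* against the mitochondrial polymerase *POLG* (-0.05) the libraries overlapped.

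**Figure D3:**
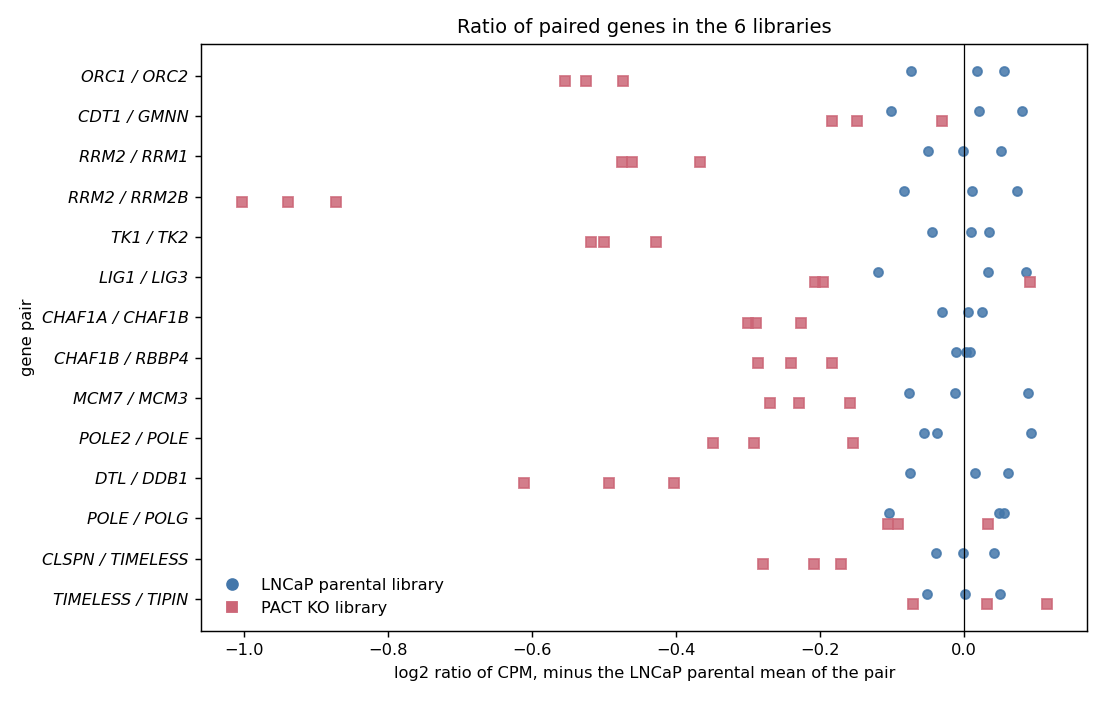
Log2 ratio of CPM between 14 pairs of genes in each library, less the mean of the 3 LNCaP parental libraries for that pair (horizontal axis); circles are parental and squares PACT KO libraries. The ratio of *RRM2* to *RRM2B* is shifted most, by -0.94, and 4 pairs overlap between groups (*CDT1*/*GMNN*, *LIG1*/*LIG3*, *POLE*/*POLG* and *TIMELESS*/*TIPIN*).

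All 6 genes of fork protection, histone mRNA and chromatin assembly were lower. *CLSPN*, which encodes the checkpoint mediator claspin, fell from 30.3, 29.1 and 29.2 CPM to 20.6, 20.4 and 20.5 CPM (log2 FC -0.53, SE 0.06, edgeR FDR 3.63e-09). *TIMELESS*, a partner at the fork, went from 144, 147 and 143 CPM to 114, 116 and 122 CPM (log2 FC -0.31, SE 0.03, edgeR FDR 1.63e-10). Both were separate between groups. *TIPIN*, which forms a dimer with TIMELESS, had a log2 FC of -0.33 (SE 0.08), and the ratio between the pair overlapped between groups. *CHAF1A*, the large subunit of the histone chaperone CAF-1, fell from 67.2, 66.6 and 65.3 CPM to 49.4, 48.3 and 52.7 CPM (log2 FC -0.41, SE 0.04, edgeR FDR 5.62e-11). *CHAF1B*, the middle subunit, went from 57.1, 55.7 and 56.8 CPM to 51.8, 50.2 and 52.5 CPM (log2 FC -0.14, SE 0.04, edgeR FDR 0.00418), and did not pass without LNCaP parental replicate 1 or 3 or PACT KO replicate 1 or 2 (edgeR FDR 0.0162 to 0.0254), nor with DESeq2 (adjusted p 0.0312). The small subunit *RBBP4*, which also serves other chromatin complexes, was higher by a log2 FC of 0.10 (SE 0.03, edgeR FDR 0.00163). CAF-1 transcripts shifted against each other, with both subunit ratios (-0.27 for *CHAF1A* to *CHAF1B*, -0.24 for *CHAF1B* to *RBBP4*) separate between groups. *SLBP*, which binds the stem-loop of histone mRNA, had a log2 FC of -0.21 with 60.0, 58.3 and 58.3 CPM in parental and 49.1, 53.6 and 50.004 CPM in PACT KO cells.

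The last sub-complex held 3 genes of S phase that fit none of the others, and all 3 were DEGs. *WDR76*, a WD40 repeat protein (chr15:43827002-43868412, RefSeq GRCh38.p14), had 241, 197 and 219 reads in parental and 21, 35 and 17 reads in PACT KO libraries. In CPM this was 9.52 ± 0.955 against 1.04 ± 0.343 (SD, n = 3), 8.997-fold lower, with a log2 FC of -3.17 (SE 0.15, edgeR FDR 1.84e-19). The next largest fall in the set was the -0.78 of *RRM2*. *DTL*, the substrate receptor through which the CUL4 ubiquitin ligase removes CDT1 in S phase, fell from 29.3, 30.7 and 30.4 CPM to 20.9, 18.5 and 19.7 CPM (log2 FC -0.61, SE 0.06, edgeR FDR 2.78e-10). *HELLS*, a chromatin remodeller needed for DNA methylation, had 13.8, 16.0 and 19.4 CPM against 10.6, 11.5 and 10.5 CPM (log2 FC -0.60, SE 0.10, edgeR FDR 2.46e-06). Its groups were separate, with a wider spread among the parental libraries than in most of the set. Relative to *DDB1*, the adaptor that holds it in the ligase, *DTL* was lower by 0.50 on the log2 scale, and *DDB1* itself had a log2 FC of -0.11 (edgeR FDR 0.00103).

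Placed side by side, the 14 sub-complexes were lower by between 8.12% and 43.7% of their summed level, and in each of them the 3 PACT KO sums lay below the 3 parental sums. The fall was 43.7% in the group with *WDR76*, 31.1% in deoxynucleotide supply, 30.4% in the MCM2-7 ring, 29.2% in the licensing factors and 29.1% in CDC45, GINS and MCM10. It was 26.4% for Okazaki fragment joining, 25.2% for polymerase alpha-primase, 21.0% for fork protection and 19.1% for the clamp and its loader. Polymerase epsilon (17.7%), histone mRNA and chromatin assembly (16.1%), polymerase delta (14.9%), RPA (11.8%) and ORC (8.12%) changed least. Sums are weighted to the genes with most reads, such as *POLD2* in polymerase delta and *RPA1* in RPA. The Spearman correlation between CPM per kb in parental cells and log2 FC was 0.03 across the 54 genes, and Pearson's r was 0.228 with *WDR76* and -0.07 without it. These are descriptions across genes measured in the same 6 libraries.

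**Figure D4:**
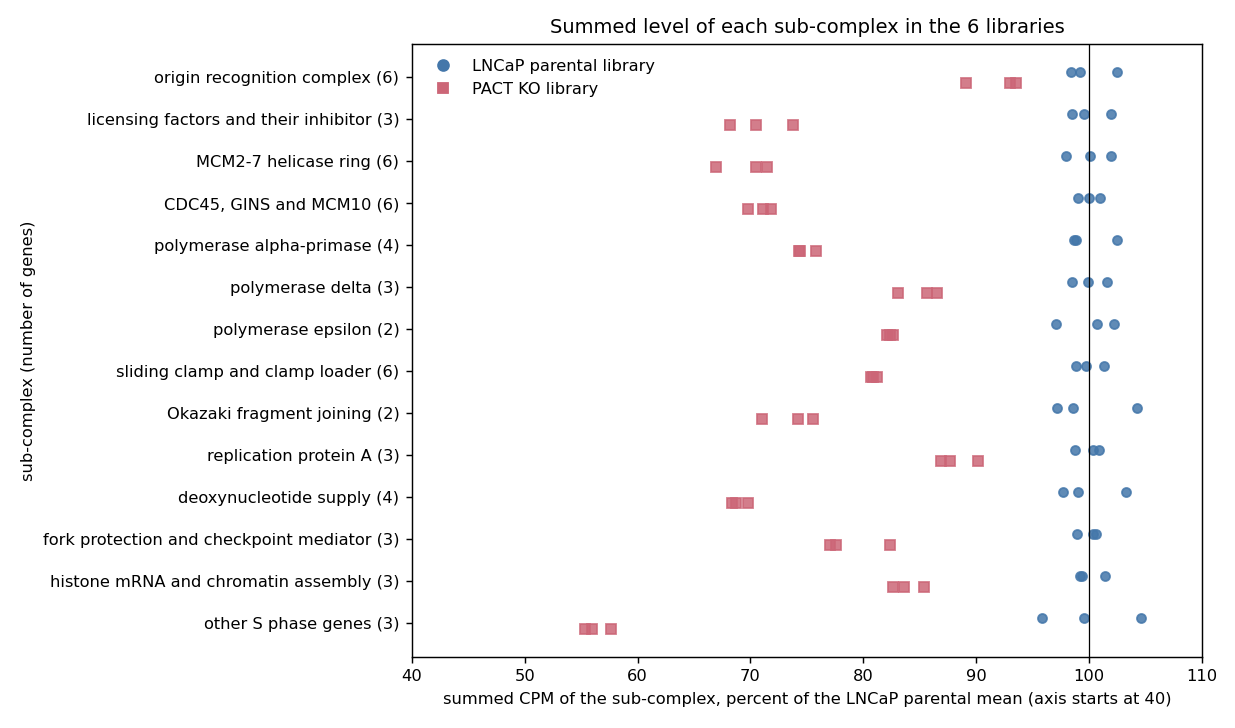
Summed CPM of each sub-complex in each library, as a percent of the mean of the 3 LNCaP parental libraries (horizontal axis, starting at 40); circles are parental and squares PACT KO libraries, with the number of genes in brackets. The PACT KO sums lie left of the parental sums in all 14, closest for the origin recognition complex (8.12% lower) and farthest for the other S phase genes (43.7% lower).

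Replication genes outside the set were lower more often than higher. Of 83 such genes in 7 lists, all tested, 44 passed the same FDR as lower and 4 as higher, where 18.8% and 15.3% of all genes tested did. Among 13 origin firing factors 9 were lower and 0 higher (median log2 FC -0.23). The 3 with the smallest p were *RECQL4* (-0.64), *TICRR* (-0.69) and *CDC7* (-0.28), the kinase that triggers firing, and the genes named from the other lists were chosen in the same way. Among 15 accessory polymerase, clamp loader, nuclease and topoisomerase genes 10 were lower and 0 higher (median -0.28), with the topoisomerase *TOP2A* at -0.52, *PCLAF* at -0.60 and *RNASEH2A* at -0.47. Of 15 replication-coupled chromatin genes 10 were lower and 1 was higher (median -0.27), with *ATAD2* at -0.43, the maintenance methyltransferase *DNMT1* at -0.36 and the histone chaperone *ASF1B* at -0.69.

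The remaining lists sat nearer to 0. Of 11 other nucleotide metabolism genes 4 were lower and 1 was higher (median -0.02), the lower ones including *CTPS1* (-0.32) and *DTYMK* (-0.41). Of 8 subunits of ubiquitin ligases that act on licensing factors 4 were lower and 0 higher (median -0.10), with *CUL4A* at -0.20, *SKP2* at -0.25 and *CUL1* at -0.15. For 10 genes of mitochondrial DNA replication 5 were lower and 0 higher (median -0.10), with *MGME1* at -0.27, the helicase *TWNK* at -0.36 and *POLG* at -0.20. Translesion and repair polymerases had 2 lower, 2 higher and 7 not past the threshold of 11 (median 0.06), near the 18.8% and 15.3% of all genes tested. The lower ones were *POLQ* (-0.54) and *POLH* (-0.22) and the higher ones *POLI* (0.22) and *POLK* (0.28). These lists were not tested as sets, and no difference between them and the 54 genes was tested.

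**Figure D5:**
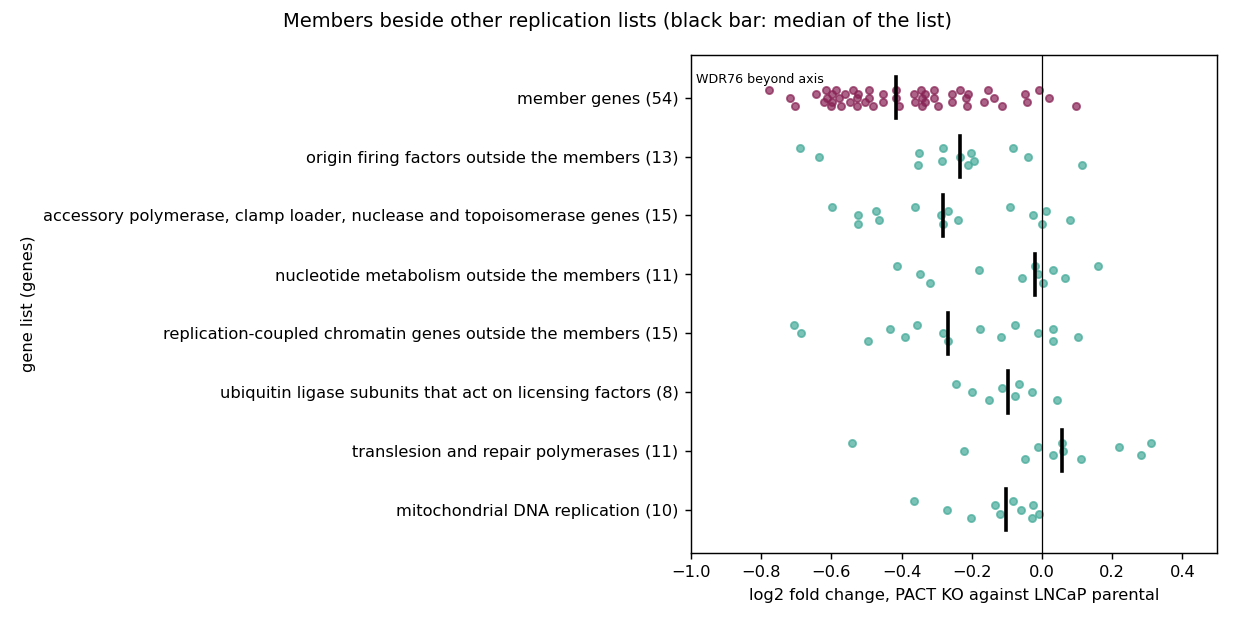
The log2 FC in PACT KO against LNCaP parental cells of each of the 54 genes and of the genes of 7 other replication lists (points), with the median of each list as a black bar and the number of genes tested in brackets. *WDR76* at -3.17 lies beyond the left end of the axis; medians run from -0.42 for the 54 genes to 0.06 for translesion and repair polymerases.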

How the data were processed

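RNA-seq was performed on 3 LNCaP parental and 3 PACT KO cultures. The authors deposited raw counts of reads per gene, listed by NCBI Gene number and not normalized. The submitters' processing notes name hg38, bcl2fastq 2.20.0.422, STAR 2.5.3a, StringTie 1.3.3 and featureCounts 1.5.3, without their order. The use of strand, the annotation and the handling of reads that map to several genes are not given in the sources used here, and affect genes that share exons or copies. Symbols and positions came from RefSeq GRCh38.p14 (92.4% of 29806 genes, 99.9% of counts). One row without a gene number (0.0688% to 0.0708% of counts) was left out.

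Genes were filtered with edgeR's filterByExpr (14462 kept), scaled by TMM and compared by glmQLFit and glmQLFTest with defaults (edgeR 4.0.16, R 4.3.3; common dispersion 8.41e-04). The test is 2-sided, with Benjamini-Hochberg adjustment over all 14462 genes. With 3 against 3 an exact permutation test cannot go below p = 0.10, so calls rest on the model across genes, and p-values measure the spread between dishes. CPM are given per library or as mean ± SD. DEGs had an FDR under 0.01 and at least 1.5-fold change. The code was tested on simulated data. Alternatives used DESeq2 1.42.0, limma 3.58.1, other scalings and filters, a replicate block, and each library left out in turn. Promoter windows and figures used Python 3.11.15 and matplotlib 3.10.9.

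The members, the other lists and the pairs were chosen with earlier results of these data known, so they are not independent evidence of direction. Full values were given to members that are DEGs, do not pass the FDR or mark the ends of their sub-complex. *ORC1*, *CDT1*, *PCNA* and *SLBP* were given them besides. Outside genes were limited to *PRKRA*, the pairs and the 3 smallest p per list and direction. Exceptions were markers of cell type and the genes said to be named after their values were seen. *POLD4*, *POLE3* and *POLE4*, named as further polymerase subunits after their values were seen, were also exceptions. Results for a few genes of these lists are not reported here.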

Additional observations from a re-analysis of the deposited data

How the results depend on the processing

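The 47 lower genes ranged from 44 to 47 and the higher ones stayed at 0 under the scalings, filters and tools tried, and the lower ones were 45 to 46 with 1 library left out. The median log2 FC of the set was between -0.42 and -0.39 over those settings, and between -0.45 and -0.39 with 1 library left out. The number of DEGs depended most on the settings, because many members lie near 1.5-fold. It was 12 as reported, 7 with library totals in place of TMM, 8 with upper quartile scaling, 3 (*TYMS*, *RRM2* and *WDR76*) when edgeR's glmTreat required the change itself to exceed 1.5-fold, and 7 to 13 with 1 library left out, 7 being without PACT KO replicate 1. The log2 ratio of the summed CPM was -0.38, and -0.35 with library totals only, which moved the median of all genes from 0.00 to 0.03. With 1 library left out it was between -0.39 and -0.37. The cause of these differences was not tested beyond the scaling itself. Of the single genes, *GINS3*, *RPA1* and *CHAF1B* lost their call under some settings and *LIG1* gained one without PACT KO replicate 3. Where a group kept 2 libraries, the spread was pooled over both groups.

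The replicate numbers were also fitted as a block, which gave 47 lower genes and 12 DEGs with a median log2 FC of -0.42 and changed no call of the set. Deviations from the group means of libraries with the same number were correlated at -0.09, 0.00 and -0.09. Between libraries of different number the correlations ran from -0.08 to 0.15. Deviations within a group add to 0, so these few correlations cannot decide whether libraries of the same number were handled together. Nothing in the labels ties the numbers, and the main fit treated the samples as unpaired. At these depths the members had parental means of at least 7.97 CPM. Counting error is larger in proportion where reads are few, and it is not confined to *WDR76* with its 21, 35 and 17 PACT KO reads. *POLE2*, with 120 to 203 reads per library, had an SE of 0.10 on the log2 scale, and *MCM7*, with 3813 to 6807, had 0.03. The share of counting error in each SE was not tested.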

Other observations

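The genes on either side of *WDR76* on chromosome 15 did not pass the threshold. They were named after the values of *WDR76* were seen. The nearest tested genes on the side of lower coordinates were *MFAP1*, which encodes a splicing factor, with a log2 FC of -0.11 (edgeR FDR 0.0164), *SERINC4* with 0.32 (edgeR FDR 0.120) and *MIR1282* with 1.12 (edgeR FDR 0.0184) at 3 to 23 reads. On the other side were *FRMD5* with 0.22 (edgeR FDR 0.0760), *GOLM2* with -0.01 (edgeR FDR 0.900) and *CTDSPL2* with -0.06 (edgeR FDR 0.248).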
